A study of Mus musculus with 8 samples.

Results

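The dystrophin-glycoprotein complex was examined in AML12 cells, a mouse hepatocyte line established from a mouse carrying a human TGF-alpha transgene. The members were the 10 genes Dmd, Utrn, Dag1, Sgca, Sgcb, Sgcd, Sgce, Sntb1, Sntb2 and Dtna, out of 21612 gene symbols on the array, and they were represented by 18 of 39429 probes. The 4 control samples were kept without irisin and the 4 irisin samples received 0.5 µg/ml irisin, a hormone cleaved from the muscle membrane protein FNDC5, for 24 h. Both groups were otherwise grown alike in DMEM F-12 with fetal bovine serum, and each RNA sample was labelled with Cy3 and hybridized to its own one-colour array. The labels number the samples but do not say whether they came from separate cultures, so the spread between arrays, which is all that a p-value here measures, may be technical. The complex was chosen by the irisin differences measured on these same arrays, with that of Dmd in view. The study's own mention of Dmd concerned a regulator activity inferred from other genes, which is a different quantity from the Dmd mRNA measured here. Each irisin difference of a member is therefore given as a description, and where a member is said to be called, this only places it among the calls over all probes and is no evidence about the complex.

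In muscle the complex connects the actin cytoskeleton, through dystrophin, with laminin in the basement membrane, and its loss makes the plasma membrane fragile. Dystroglycan forms the transmembrane core, the sarcoglycans make up a smaller membrane subcomplex beside it, and the syntrophins and dystrobrevins serve as cytoplasmic adaptors. Outside muscle, utrophin and short dystrophin products started from internal promoters take the place of full-length dystrophin, and the transmembrane core is widely expressed in epithelia.

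The dystrophin gene shows this use of several promoters in its sequence. RefSeq gave promoter windows, from 250 bases before to 50 bases after a transcript start on GRCm38.p6, for 6 of the 10 members, and 8 windows in all. The pair of windows for Dmd and 1 window for Dag1, which encodes dystroglycan, are printed because they contrast a promoter poor in CpG with promoters rich in GC boxes. Capitals mark the GC box, GGGCGG or its complement CCGCCC, searched on both strands with overlapping matches counted separately.
Dmd, chrX:82948620-82948919, plus strand: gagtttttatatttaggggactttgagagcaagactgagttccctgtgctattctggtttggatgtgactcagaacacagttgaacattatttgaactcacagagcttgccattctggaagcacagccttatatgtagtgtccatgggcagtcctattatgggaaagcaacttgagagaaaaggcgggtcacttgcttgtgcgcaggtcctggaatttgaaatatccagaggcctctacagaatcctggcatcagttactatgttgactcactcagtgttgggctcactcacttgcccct
Dmd, chrX:85048045-85048344, plus strand: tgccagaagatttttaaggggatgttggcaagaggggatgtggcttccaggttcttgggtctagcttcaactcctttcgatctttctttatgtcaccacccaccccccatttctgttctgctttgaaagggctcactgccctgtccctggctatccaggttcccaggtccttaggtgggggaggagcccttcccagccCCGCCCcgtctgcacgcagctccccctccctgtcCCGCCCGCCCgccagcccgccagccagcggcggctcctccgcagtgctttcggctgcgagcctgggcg
Dag1, chr9:108263766-108264065, minus strand: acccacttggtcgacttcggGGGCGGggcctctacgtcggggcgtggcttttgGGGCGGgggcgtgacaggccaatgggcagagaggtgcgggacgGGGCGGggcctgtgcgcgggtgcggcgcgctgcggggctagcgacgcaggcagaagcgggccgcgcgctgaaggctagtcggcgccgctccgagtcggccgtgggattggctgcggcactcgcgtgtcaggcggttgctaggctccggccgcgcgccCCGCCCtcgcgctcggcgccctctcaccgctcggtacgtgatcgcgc
The first Dmd window held 2 CpG and no GC box, at 45.7% GC. The second, 2099425 bases farther along the gene, held 14 CpG and 3 GC boxes, at 62.7% GC. The Dag1 window held 47 CpG and 4 GC boxes, at 75.3% GC. Across 32851 promoter windows of the same length the median was 7 CpG and 52.7% GC, and 35.7% held a GC box. Thus the first Dmd window lay below the median in both measures, and the other windows printed lay above it. The Utrn window, not printed, was like the first Dmd window, with 2 CpG and no GC box, at 46% GC. The letters TATAAA, on either strand, occurred 1 time each in the first Dmd window and the Sgcb window, and in 13.6% of all windows. The E-box letters CANNTG, which read the same on both strands, occurred 3 times in the first Dmd window, 7 times in the Utrn window (chr10:12861686-12861985, minus strand), and in 72.3% of all windows. The Sgca window (chr11:94976278-94976577, minus strand) held 2 E-box matches and no GC box, whereas the Sgcb window (chr5:73647688-73647987, minus strand) and the Sgcd window (chr11:47379276-47379575, minus strand) each held 1 GC box. These matches describe letters and were not tied to the array values.

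Several facts of the arrays bear on every value of the complex. Array signal was scaled by dividing by the 75th percentile of the array. That percentile was 473 ± 69.4 (SD, n = 4) in the controls and 784 ± 71.4 (SD, n = 4) with irisin, a log2 difference of 0.74 (p = 0.0286 by an exact permutation test, two-sided, which is the lowest value that 4 against 4 arrays can give). All controls shared 1 slide and scan, and all irisin samples another, so the treatment cannot be told apart from the slide or the scan. A probe was tested when it was well above background, by the scanner software's own mark, on all 4 arrays of at least 1 group, and it was called when limma gave at least a 1.5-fold difference with a Benjamini-Hochberg adjusted p under 0.05. Of 24091 probes tested, 172 were called higher and 2798 lower with irisin.

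Of the 18 probes of the complex, 8 probes from 7 genes were tested, and all of these were well above background on all 8 arrays. Another 4 probes passed the background mark on some arrays only, and 6 on none. With irisin, 4 tested probes, from the genes Dmd, Sgca and Sntb1, were called lower and 0 were called higher. Among all tested probes 11.6% were called lower and 0.714% higher. These 4 were also the tested probes of the complex on which every irisin array lay below every control array after scaling, which was true of 23.0% of all tested probes. The rule that chose the complex used this contrast, so nothing is read from the counts. The called probes therefore fell within the cytoskeletal link (dystrophin), the sarcoglycan subcomplex (alpha-sarcoglycan) and the syntrophin adaptors (beta-1-syntrophin), while utrophin, dystroglycan, epsilon-sarcoglycan and beta-2-syntrophin had no called probe.

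**Figure D1:**
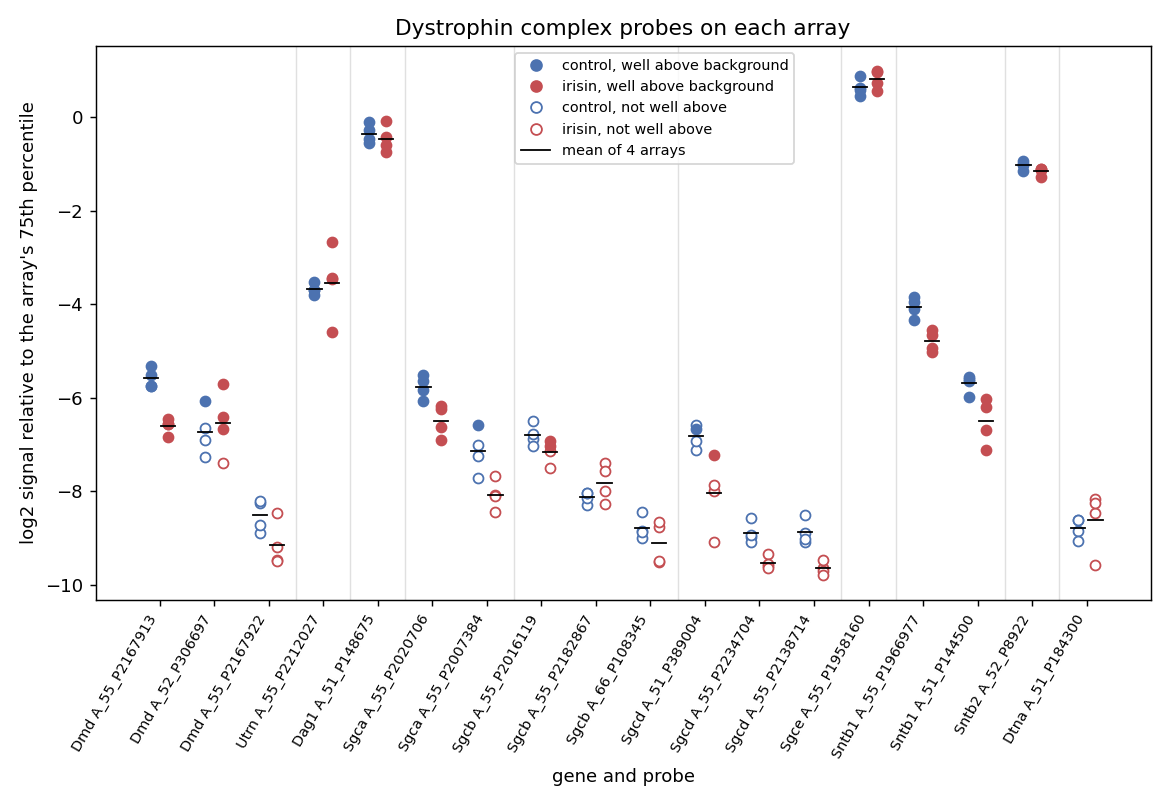
Log2 signal relative to the array's 75th percentile (y axis) for each of the 18 probes of the complex (x axis), on 4 control and 4 irisin arrays. Points are arrays, filled where the probe was well above background and open where it was not, and bars are means of 4 arrays. The groups separate at 4 tested probes, of Dmd, Sgca and Sntb1 (2 probes), and overlap at Utrn, Dag1, Sgce and Sntb2.

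Dystrophin, encoded by Dmd, is the rod-shaped link from actin to dystroglycan and is the protein lost in Duchenne muscular dystrophy. At probe A_55_P2167913 the scaled log2 signal was -5.32, -5.75, -5.76 and -5.51 in control replicates 1 to 4, and -6.84, -6.57, -6.57 and -6.46 in irisin replicates 1 to 4. Every irisin array lay below every control array. The means were -5.58 ± 0.211 (SD, n = 4) and -6.61 ± 0.163 (SD, n = 4), so the scaled level with irisin was lower by a log2 difference of -1.03 (SE 0.123). Before scaling, the signal was 9.36, 9.06, 9.87 and 11.0 in the controls and 6.93, 7.18, 8.47 and 9.69 with irisin. Without the scaling the groups overlapped, and the log2 difference was -0.29. These signals are near the detection limit, since the dimmest probes marked well above background had signals between 4.21 and 4.73 across the 8 arrays.

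The other Dmd probes did not give a second measurement of this difference. Probe A_52_P306697 was well above background on 1 control and 3 irisin arrays and was not tested. Its signal was 3.70, 4.08, 3.44 and 7.38 in the controls and 15.3, 4.06, 7.92 and 9.93 with irisin, with a scaled log2 difference of 0.18. The groups overlapped, and the direction was opposite to that of the first probe. Probe A_55_P2167922 never passed the background mark, with signals from 1.12 to 1.94. All 3 probes were annotated to the same dystrophin transcript record, and where they lie along it was not analysed here.

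Utrophin, encoded by Utrn, is the autosomal relative of dystrophin that carries out the same linkage in many non-muscle cells. At its probe A_55_P2212027 the scaled log2 signal was -3.81, -3.53, -3.71 and -3.69 in the controls and -2.67, -4.60, -3.44 and -3.45 with irisin. The control arrays lay close together, and the irisin arrays spread to both sides of them. The difference of 0.14 (SE 0.315) was smaller than its standard error, and it ranged from -0.15 without irisin replicate 1 to 0.49 without irisin replicate 2. Unscaled, irisin replicates 1 and 2 stood at signals of 125 and 28.2 against 26.6 to 42.2 in the controls.

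Dystroglycan, encoded by Dag1, is cleaved into the alpha subunit that binds laminin and the beta subunit that spans the membrane. The scaled log2 signal of its probe A_51_P148675 was -0.12, -0.28, -0.56 and -0.48 in the controls and -0.43, -0.09, -0.74 and -0.59 with irisin. The groups overlapped across their ranges, with a difference of -0.10 (SE 0.147). The unscaled signal was 345 to 401 in the controls and 482 to 641 with irisin, with irisin higher on every array. The same held for the tested probes of Sgce and Sntb2. Without scaling the Dag1 log2 difference was 0.63, near the median of 0.66 over all tested probes, of which 61.9% were called higher.

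Alpha-sarcoglycan, encoded by Sgca, belongs to the sarcoglycan subcomplex of skeletal and cardiac muscle. At probe A_55_P2020706 the scaled log2 signal was -5.84, -5.64, -6.07 and -5.53 in the controls and -6.91, -6.18, -6.24 and -6.62 with irisin. The groups did not overlap, but the gap between the lowest control and the highest irisin array was small beside the range of either group. The means were -5.77 ± 0.241 (SD, n = 4) and -6.49 ± 0.341 (SD, n = 4), a difference of -0.72 (SE 0.174). Unscaled, the mean signals were 8.76 ± 1.92 and 8.83 ± 1.68 (SD, n = 4 each), and the groups overlapped. The second Sgca probe, A_55_P2007384, was well above background on 1 control array only and was not tested.

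Beta- and delta-sarcoglycan, encoded by Sgcb and Sgcd, belong to the same muscle sarcoglycan unit. None of their 6 probes was tested. For Sgcb, probe A_55_P2016119 was well above background on 2 irisin arrays, with a scaled log2 difference of -0.36, and the other 2 probes on none. For Sgcd, probe A_51_P389004 was well above background on 1 array of each group, with a difference of -1.22, and its other 2 probes were near a signal of 1 on every array. These differences are between values at or below the background mark.

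Epsilon-sarcoglycan, encoded by Sgce, is the broadly expressed relative of alpha-sarcoglycan, and its loss causes myoclonus dystonia. Its probe A_55_P1958160 had a scaled log2 signal of 0.46, 0.59, 0.88 and 0.63 in the controls and 0.72, 0.56, 0.97 and 0.98 with irisin. The groups overlapped, and the difference was 0.17 (SE 0.124). This was the sarcoglycan probe with signal above the array's 75th percentile in both groups.

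The syntrophins are PDZ adaptor proteins that bind dystrophin, utrophin and dystrobrevin. Beta-1-syntrophin, encoded by Sntb1, was measured by a pair of tested probes. At A_55_P1966977 the scaled log2 signal was -4.09, -4.34, -3.96 and -3.84 in the controls and -5.02, -4.65, -4.93 and -4.55 with irisin. At A_51_P144500 it was -5.64, -5.99, -5.60 and -5.55 in the controls and -7.11, -6.69, -6.02 and -6.20 with irisin. At both probes every irisin array lay below every control array. The differences were -0.73 (SE 0.137) and -0.81 (SE 0.214). Sntb1 was the only gene of the complex with more than 1 tested probe. Before scaling, the first probe had mean signals of 28.7 ± 6.76 and 28.6 ± 5.32 and the second 9.20 ± 1.87 and 9.09 ± 3.37 (SD, n = 4 in each group), and the groups overlapped at both.

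Beta-2-syntrophin, encoded by Sntb2, had at probe A_52_P8922 a scaled log2 signal of -1.0, -1.15, -1.02 and -0.93 in the controls and -1.11, -1.10, -1.29 and -1.14 with irisin. The groups overlapped, with a difference of -0.13 (SE 0.083). Alpha-dystrobrevin, encoded by Dtna, was represented by 1 probe, A_51_P184300, that never passed the background mark and whose signals ran from 0.890 to 2.78.

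The called probes of the complex were dim. When the tested probes were ranked by mean signal and divided into 10 equal bins, the Dmd and Sgca probes and the second Sntb1 probe lay in the dimmest bin and the first Sntb1 probe in the third. In the dimmest bin the median log2 difference of all tested probes was -0.51 and 45.0% were called lower. In the third bin these values were -0.15 and 19.5%. Over the 3 dimmest bins together 32.9% of tested probes were called lower, against 2.51% over the 7 brighter bins. The Utrn probe lay in the fourth bin (8.84% called lower), the Dag1 and Sntb2 probes in the sixth (1.54%) and the Sgce probe in the seventh (0.706%). The order of the probes by signal and their order by call therefore ran together. Each of the 4 called probes had a difference beyond the median of its bin. The 1.5-fold threshold fixed this in advance, since the median of each of these bins was smaller than that.

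Probes at background gave a similar shift. The 12633 probes that passed the background mark on no array had a median log2 difference of -0.76 after scaling and -0.025 without it. Among all tested probes the median was -0.079 after scaling and 0.66 without it. The 8 tested probes of the complex had medians of -0.43 and 0.31, and the 6 probes of the complex at background had medians of -0.47 and 0.26. The differences of Sgca and Sntb1 lay between -0.72 and -0.81, beside the median of -0.76 for undetected probes. The part of this shift in the difference of each member was not tested.

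**Figure D2:**
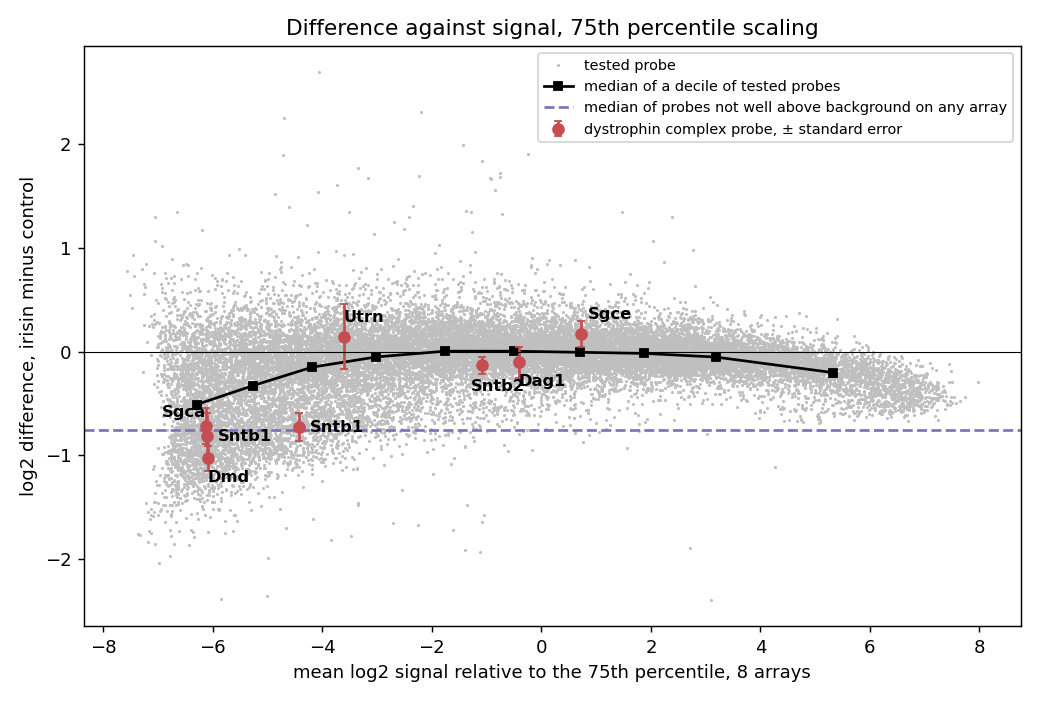
Log2 difference, irisin minus control (y axis), against mean log2 signal relative to the 75th percentile (x axis) for all tested probes (grey), with the 8 tested probes of the complex named (red, bars are standard errors), the median of each of 10 bins of signal (black) and the median of probes at background (dashed). The 4 called probes, of Dmd, Sgca and Sntb1, lie among the dim probes at the left, and Dag1, Sgce and Sntb2 lie among brighter probes near 0.

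Since the 75th percentile differed between the groups, the members were followed under 7 ways of scaling. The Dmd difference at A_55_P2167913 was negative under all 7, at -1.03 with the 75th percentile, -1.04 with the median of detected probes, -0.58 after normexp background correction, -0.54 with quantile normalization, -0.54 with cyclic loess, -0.45 with spike-in probes and -0.29 with no scaling. It turned to 0.44, with 0 probes called in all, when normexp was run with 16 outlying background spots left in, an alternative chosen after seeing the data. It was called under the first 2 of these and not under the other 5. Sgca and the Sntb1 probe A_55_P1966977 were called under the same 2, and the Sntb1 probe A_51_P144500 also after normexp. Among all tested probes 12.1% were called lower with the median of detected probes and 5.93% after normexp. With quantile normalization and cyclic loess 0 probes of the complex were called, beside 4.22% and 3.84% of all tested probes called lower. With spike-in scaling the only called member was Sgce, higher by 0.75. With no scaling the called members were Utrn at 0.88, Dag1 at 0.63, Sgce at 0.91 and Sntb2 at 0.60, all higher. The share of all tested probes called higher was 32.2% with spike-in scaling and 61.9% with none. The median of all tested probes ranged from -0.16 to 0.66 on the log2 scale. The 75th percentile, the median of detected probes, the spike-in probes and no scaling shift all probes of an array alike, so they move every member together with that median. Which members were called, and in which direction, thus differed with the scaling.

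**Figure D3:**
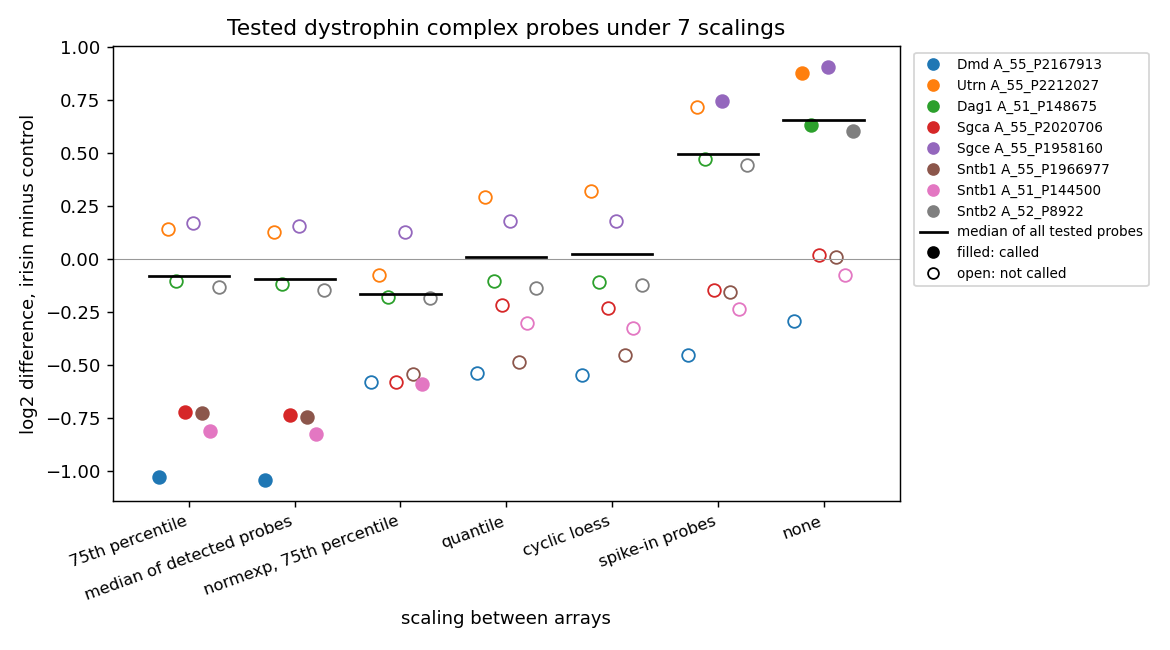
Log2 difference, irisin minus control (y axis), of the 8 tested probes of the complex under 7 scalings (x axis), filled where called and open where not, with the median of all tested probes as a black bar. Dmd lies below 0 in the 7 settings drawn, from -1.04 to -0.29 (it was 0.44 in a normexp setting that is not drawn), whereas Utrn, Dag1, Sgce and Sntb2 stand above 0.5 when no scaling is used.

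The rest of the complex was described by a list of 10 further members, each gene represented by its brightest probe. Of these, 7 were tested, 2 were called lower and 0 higher, with a median difference of -0.43 against -0.063 over all 14310 genes tested, of which 10.1% were called lower and 0.531% higher. Zeta-sarcoglycan (Sgcz) was lower by a log2 difference of -1.20 (SE 0.229), with signals of 10.3 to 13.9 in the controls and 5.18 to 12 with irisin. It passed the filter through the control group, where it was higher, since only 3 irisin arrays were well above background, so its call is given as a description. Neuronal nitric oxide synthase (Nos1), which is held at the muscle membrane by syntrophin, was lower by -1.12 (SE 0.129, limma adjusted p = 0.000214), with signals of 16.1 to 27.6 in the controls and 13.2 to 19.7 with irisin. Both were dim probes, with Sgcz in the dimmest bin and Nos1 in the second, where 45.0% and 34.1% of tested probes were called lower. The second probe of each gene was at background on every array and was not tested. Sarcospan (Sspn, 0.05), beta-dystrobrevin (Dtnb, -0.20) and Drp2 (-0.28) were among those not called. Drp2, a dystrophin-related protein, had a second probe that was called lower at -1.03. In the controls the levels of both Drp2 probes were alike, with mean scaled log2 signals of -4.44 and -4.42, and the mean over both groups decided which one stood for the gene. The probes of the gamma-syntrophins Sntg1 and Sntg2 and of caveolin-3 (Cav3) were at background on every array.

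Among 17 extracellular ligands and cytoplasmic partners, 13 were tested, 2 were called lower and 0 higher, with a median of -0.16. Over all tested genes 10.1% were called lower. Biglycan (Bgn), a proteoglycan that binds dystroglycan and sarcoglycans, was lower by -1.56 (SE 0.223). Its signals were 8.06 to 12.5 in the controls and 4.49 to 7.37 with irisin, without overlap. Only 3 of the irisin arrays measured it well above background, so it too passed the filter through the group where it was higher, and its call is a description. The brighter ligand probes were not called, with laminin alpha-5 (Lama5) at -0.04, agrin (Agrn) at -0.07 and perlecan (Hspg2) at 0.30. Plectin (Plec) at -0.16 and ankyrin-G (Ank3) at 0.41, which tie the complex to the cytoskeleton, were likewise not called, nor was ankyrin-B (Ank2) at -0.90 (SE 0.532). Ank3 fell short of the 1.5-fold threshold only (limma adjusted p = 0.00202). Mast1, a kinase that binds syntrophins, was not called at its brightest probe (-0.05), while another of its probes was called lower at -0.62, again a probe of similar signal in the controls.

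The enzymes that build the laminin-binding sugar on alpha-dystroglycan had 17 of 18 genes tested, 1 called lower and 0 higher, at a median of -0.026. The called gene was Large2, a glycosyltransferase that extends this sugar, lower by -0.64 (SE 0.112, limma adjusted p = 0.00177), and its second probe gave -0.66 and was called as well. Its unscaled signals overlapped, at 197 to 394 in the controls and 277 to 333 with irisin. Rxylt1 differed by 0.57 and Pomt2 by 0.30, neither of them past the 1.5-fold threshold. The count of 1 stands beside 10.1% of all tested genes called lower, and nothing is read from it. Most of the other enzymes stood near the median of all genes. Nos1 was called under 5 of the 7 scalings and Large2 under 4. Bgn and Sgcz, which passed the filter through the control group, were called under 7 and 6. When all 8 arrays had to be well above background, 2 of the 5 called genes of the 3 lists were left.

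**Figure D4:**
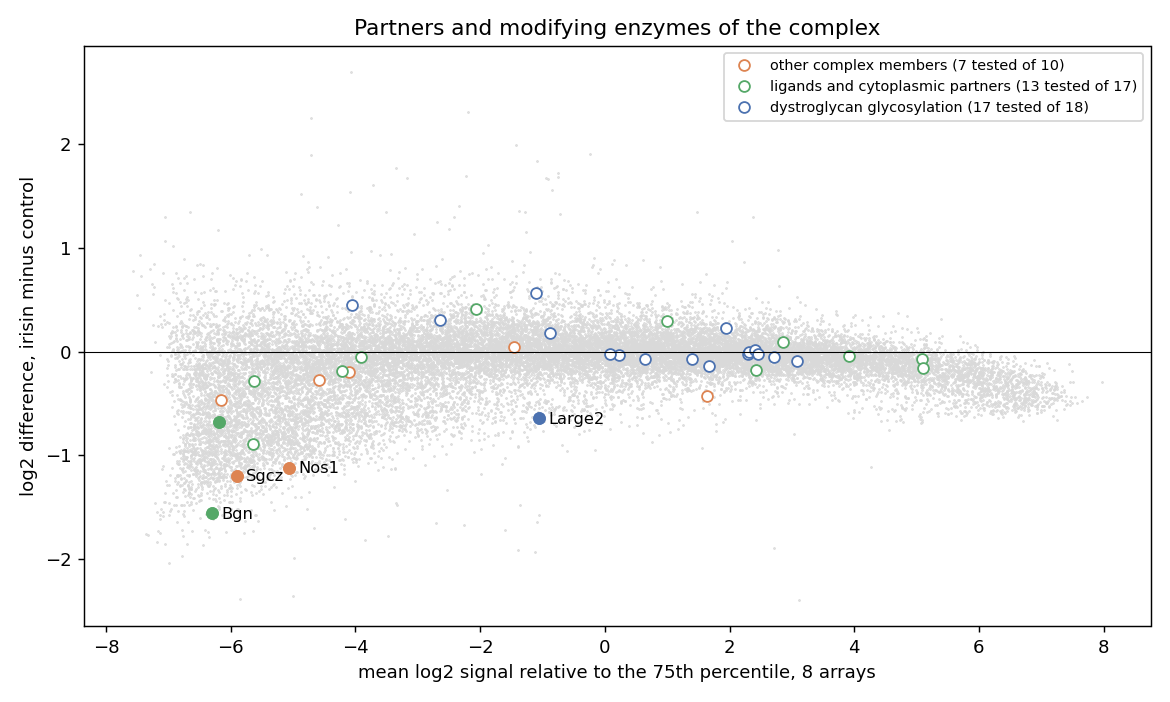
Log2 difference, irisin minus control (y axis), against mean log2 signal relative to the 75th percentile (x axis), for the brightest tested probe of each gene in the lists of other complex members, ligands and cytoplasmic partners, and dystroglycan glycosylation enzymes. Filled points are called genes, open points are not, and grey dots are all tested probes. Sgcz, Nos1 and Bgn lie among the dim probes at the left, and Large2 lies among brighter probes.

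Markers of other cells were examined because full-length dystrophin and alpha-sarcoglycan are mainly muscle products. All 7 hepatocyte markers were tested, and limma called 0. An unadjusted p under 0.05 was found for 2, Krt18 at -0.47 (limma adjusted p = 0.00509) and Trf at -0.38 (limma adjusted p = 0.0200). Both passed the adjusted p threshold and fell short of the 1.5-fold threshold. Of 9 muscle markers, Myod1 and Acta1 were tested, limma called 0, and 5, including Myog, Des and Pax7, were at background on every array. The 1 with an unadjusted p under 0.05 was Myod1, in the dimmest bin, at -0.53 (limma adjusted p = 0.00505). It too fell short of the 1.5-fold threshold only. The summed unscaled signal of the muscle list, on arrays whose 75th percentile was itself higher with irisin, was 50.7 to 74.3 in the controls and 76.4 to 86.7 with irisin, while the median scaled log2 difference of its tested genes was -0.33. Of 6 fibroblast and stellate markers, 2 were tested. Col1a2 was called lower at -1.08, and Col1a1 was not called, at 0.0077. The other 4 were at background on every array. The summed unscaled signals of this list were 45.8 to 50.3 in the controls and 45.7 to 58.3 with irisin. Macrophage markers (5 genes, 2 tested) and cholangiocyte markers (4 genes, 3 tested) gave 0 calls by limma, with 1 and 0 genes at an unadjusted p under 0.05. The macrophage gene was Csf1r at -0.49 (limma adjusted p = 0.00138), short of the 1.5-fold threshold only. Of 4 endothelial markers 2 were tested, both with an unadjusted p under 0.05, and Pecam1 was called lower at -0.61. Kdr, in the sixth bin, stood at -0.56 (limma adjusted p = 0.00444) and fell short of the 1.5-fold threshold only. The part of these lists in the values of the complex was not tested.

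The genes whose profile over the 8 arrays was nearest to that of the Dmd probe A_55_P2167913 were Serpinb3c, Aadacl2fm1, Gpr6, Olfr456 and Nrgn, out of 18867 tested probes with a gene symbol. Their root mean square differences from the Dmd profile, each centred on its own mean, were 0.074, 0.0815, 0.0908, 0.091 and 0.0933 on the log2 scale. Of these, 3 probes lay in the dimmest bin of signal with Dmd, 1 in the second and 1 in the third. No other member of the complex was among them.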

How the data were processed

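Total RNA from 4 control and 4 irisin samples was hybridized to one-colour Agilent mouse arrays. The authors extracted the spots with Agilent Feature Extraction (version 12.0.3.1 in the file headers). The deposited values are linear spot intensity, background-subtracted by that software (gProcessedSignal). The deposited value table equals these intensities within 0.0005% on its 39429 matched probes. From there, control spots were left out, and so were spots marked as outliers (at most 0.463% per array) where a probe had an unmarked spot. Where all spots of a probe on an array were marked, they were kept. Spots of a probe were averaged, log2 was taken, and the 75th percentile of the array was subtracted. The number of arrays limits the precision, and no spot was saturated. Between 59.5% and 64.1% of probes were well above background per array. The groups were compared with lmFit and eBayes of limma 3.58.1 in R 4.3.3, with Benjamini-Hochberg adjustment over all 24091 tested probes, and a call needed at least 1.5-fold and an adjusted p under 0.05. For a list, the brightest probe stood for its gene. Symbols were found by matching the transcript record annotated for each probe to RefSeq genes of GRCm38.p6, and 72.7% of probes had one. Promoter windows were read from RefSeq tables with Python 3.11.15. The procedure was checked on simulated data. Alternatives changed the background correction, the scaling, the filter, the test and the samples. In normexp, 16 spots on 2 arrays whose background was over 10 times the array's median were set to that median. The genes named are the 10 members, called genes of the lists and the 5 profiles nearest to Dmd, and other list genes and second probes were named after their values were seen. The members and lists were chosen with earlier results of these data known. Some genes of the lists, 1 of them called, are included in the counts and medians but are not reported here by name.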

Additional observations from a re-analysis of the deposited data

How the results depend on the processing

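Of 168 member differences recomputed under alternatives, 138 moved by less than the SD between replicates, 24 moved by more and 6 called differences reversed. Alternatives that changed only the filter or the eBayes options, or added a replicate block, could not move a difference. The deposited values and the fit with marked spots kept had nearly the same input. All of these count among the 138, which therefore overstates how stable the differences were. Called probes in all numbered 2970, 1482 after normexp, 1687 with quantile normalization, 1617 with cyclic loess, 8117 with spike-in scaling, 15078 with none, 12880 without the filter on dim probes, and 5903 with the adjusted p alone. These split into 172, 53, 671, 693, 7756, 14916, 186 and 721 higher, and 2798, 1429, 1016, 924, 361, 162, 12694 and 5182 lower. Member calls numbered 4 lower, against 1 lower after normexp, 0 with quantile normalization or cyclic loess, 1 higher (Sgce, none of the 4) with spike-in scaling, 4 higher with no scaling, 8 lower without the filter and 2 lower with the methods' t-test. Called genes of the other lists numbered 5, all lower, against 3 lower after normexp, 12 with spike-in scaling (10 higher, 2 lower), 24 with no scaling (23 higher, 1 lower), and 2 lower when all 8 arrays had to be well above background. With no scaling, Sgca turned to 0.018 and the Sntb1 probe A_55_P1966977 to 0.0086. In an alternative chosen after seeing the data, normexp with the 16 outlying background spots kept, limma called 0 probes, 0 members and 0 list genes (4083 probes and 8 list genes had an unadjusted p under 0.05), and the differences turned to 0.44 for Dmd, 0.43 for Sgca, and 0.35 and 0.42 for the Sntb1 probes A_55_P1966977 and A_51_P144500; the cause was not tested beyond that construction.

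Leaving out 1 array at a time gave 2778 to 3368 called probes, 3 to 4 member calls and 4 to 6 list genes. Dmd stayed between -1.09 and -0.94 and was called each time. There were 3 member calls without control replicate 4 and 3 without irisin replicate 1, and Sgca and the Sntb1 probe A_51_P144500 each lost their call once. The labels do not say whether control and irisin samples that share a number were paired. The correlations of same-numbered deviations were 0.106, -0.333, -0.116 and 0.152. With 4 arrays per group, each group on its own slide, these cannot decide it. With the replicate block 2986 probes (171 higher, 2815 lower), 4 members and 5 list genes were called. Probes near background limit what these arrays can resolve for Dmd, Sgca, Sgcb, Sgcd, Dtna and the Sntb1 probe A_51_P144500.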
